A study of Mus musculus with 4 samples.

Results

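BAFF, APRIL, CD40, ICOS, interleukin-6 and interleukin-21 are the signals that keep B cells alive and help them to become antibody-secreting cells. The set described here has 10 named genes, Tnfsf13b, Tnfsf13, Tnfrsf13b, Tnfrsf13c, Cd40, Cd40lg, Icosl, Icos, Il6 and Il21r, out of 32287 genes listed in the spatial data. They were chosen by name for their place in these pathways, with earlier results of these data known.

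Visium spatial transcriptomics was performed on popliteal lymph nodes (PLNs), the nodes that drain the hind paw, of male C57BL/6 mice. The 4 capture areas were a WT area (5 mice, 10 PLNs, 5.5 months old), an Early area of TNF-Tg mice with early arthritis (3 mice, 6 PLNs, 5.5 months old) and 2 Advanced areas of TNF-Tg mice with advanced arthritis (Advanced 1 and Advanced 2, with 6 PLNs each from 6 mice in all, 8.5 to 9 months old). TNF-Tg mice overexpress TNF from a transgene and develop inflammatory-erosive arthritis. Every area was 1 tissue section through a block of pooled nodes, so WT and Early had no replicate area. Between conditions, the only replicates were the 2 Advanced areas, which came from separate tissue blocks. Comparisons between places in the nodes used all 4 areas as replicates. The edgeR p-values in both rest on a spread estimated with information shared across genes, not on the areas of each gene alone. The stage of arthritis was assigned by age, and age cannot be told apart from disease stage between Advanced and the other groups. Evans blue dye had been injected into the paws of all groups to find the nodes.

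BAFF (Tnfsf13b) and APRIL (Tnfsf13) are soluble ligands of the TNF superfamily made largely by myeloid and stromal cells. BAFF binds BAFF receptor (Tnfrsf13c), the receptor that mature B cells need to survive, and both ligands bind TACI (Tnfrsf13b) on B cells and BCMA (Tnfrsf17) on plasma cells. CD40 on B cells and dendritic cells is engaged by CD40 ligand (Cd40lg) on activated helper T cells, and ICOS on T cells by ICOS ligand (Icosl) on B cells. Interleukin-6 and interleukin-21, which acts through Il21r, drive the later steps of B cell differentiation.

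Positions are those of the mouse genome build GRCm38 (GENCODE annotation M21). Tnfsf13b was annotated at chr8:10006467-10039072 on the forward strand, Tnfsf13 at chr11:69682846-69685784 on the reverse strand, Tnfrsf13b at chr11:61126755-61149372 on the forward strand and Tnfrsf13c at chr15:82221743-82224369 on the reverse strand. Cd40 was annotated at chr2:165055627-165072948, Cd40lg at chrX:57212143-57224042, Icosl at chr10:78069302-78083913, Icos at chr1:60977927-61000320, Il6 at chr5:30013114-30019981 and Il21r at chr7:125603429-125633570, all on the forward strand. Tnfsf13 overlaps the antisense gene Tnfsf13os, which had 77 UMIs against the 696 of Tnfsf13, and the read-through gene Tnfsfm13. Tnfsfm13 was not among the genes counted, so its transcripts cannot be told apart from those of Tnfsf13. The effect of either overlap on the values of Tnfsf13 was not tested.

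The upstream sequences of the ligand Tnfsf13b and of 2 of its receptors are shown. These 3 genes were picked from a result given below, the fitted log2 difference between spots rich in B cell markers and other spots. It was below 0 for Tnfsf13b (-0.91) and above 0 for Tnfrsf13b (1.02) and Tnfrsf13c (1.24). In the WT area alone Tnfsf13b was higher in the B cell rich spots, as the receptors were (0.348 against 0.210 UMIs per 10000). Each sequence is the 250 bases before the RefSeq gene start (GRCm38.p6), written 5′ to 3′ on the strand of the gene, with letters matching a searched motif in capitals. The windows are chr8:10006217-10006466 (forward strand) for Tnfsf13b, chr11:61126505-61126754 (forward strand) for Tnfrsf13b and chr15:82224381-82224630 (reverse strand) for Tnfrsf13c.
Tnfsf13b: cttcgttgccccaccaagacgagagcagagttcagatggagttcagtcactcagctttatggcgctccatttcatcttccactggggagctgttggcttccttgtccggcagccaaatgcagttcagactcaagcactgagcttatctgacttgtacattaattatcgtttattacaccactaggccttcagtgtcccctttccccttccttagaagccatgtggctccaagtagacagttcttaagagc
Tnfrsf13b: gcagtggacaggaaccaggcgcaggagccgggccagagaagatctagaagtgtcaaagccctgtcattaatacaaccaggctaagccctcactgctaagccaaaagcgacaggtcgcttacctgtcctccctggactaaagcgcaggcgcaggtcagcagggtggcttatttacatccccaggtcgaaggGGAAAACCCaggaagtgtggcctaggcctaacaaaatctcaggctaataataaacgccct
Tnfrsf13c: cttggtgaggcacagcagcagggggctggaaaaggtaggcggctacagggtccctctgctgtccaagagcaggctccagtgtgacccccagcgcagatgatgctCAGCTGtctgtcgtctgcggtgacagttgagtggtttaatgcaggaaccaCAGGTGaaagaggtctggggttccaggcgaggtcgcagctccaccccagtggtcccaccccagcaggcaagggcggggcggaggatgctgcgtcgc

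Both strands of the window were searched for 6 motifs of B cell transcription factors. These were the octamer ATGCAAAT, the PU.1 core GAGGAA, the E-boxes CAGCTG and CAGGTG, the EBF1 core CCCNNGGG and the NF-kB motif GGGNNTTCC. The Tnfrsf13c window held both E-boxes, CAGCTG starting 146 bases and CAGGTG starting 96 bases before the gene start. These motifs stood in 13.0% and 17.2% of 32851 RefSeq promoters. The Tnfrsf13b window held a single NF-kB match on the opposite strand, 60 bases before the gene start, a motif found in 4.98% of promoters. The Tnfsf13b window held none of the 6, nor did a further RefSeq window of this gene. The window of the other ligand, Tnfsf13, held an EBF1 core 13 bases before the gene start, a motif found in 11.8% of promoters. The Icosl window held CAGGTG on the opposite strand, 189 bases before the gene start, and those of Il6 and Il21r held none. Whether any of these matches bears on where the genes were found was not tested. A window was listed for 7 of the 10 genes, and the octamer (1.60% of promoters) and the PU.1 core (23.3%) matched in none of these.

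The areas held 833 (WT), 1489 (Early), 2015 (Advanced 1) and 1782 (Advanced 2) spots under tissue and 1808678 to 5180493 UMIs (unique molecular identifiers, each standing for 1 captured transcript). Each spot samples the RNA of all cells that lie over it, often of more than 1 type. Rim spots, those with fewer than 6 neighbours under tissue, held 79.3% of the UMIs in WT, 75.7% in Early, 47.9% in Advanced 1 and 64.5% in Advanced 2. The 273, 601, 579 and 604 spots with at least 1000 UMIs held 89.9% to 96.5% of each area's UMIs. B cell markers summed to 25.1 UMIs per 10000 UMIs in WT, 46.0 in Early, 40.3 in Advanced 1 and 36.5 in Advanced 2, with all 12 markers detected in each area. T cell markers summed to 10.3 to 15.3 and macrophage markers to 31.8 to 63.2 per 10000.

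The first question was which of these signals the node sections held at all and how their levels stood in WT, Early and Advanced areas. Transcripts of 8 of the 10 genes were measured in every area, and the remaining pair, Cd40lg and Il6, were at or near 0. None of the 8 differed between Advanced and Early or between Advanced and WT at an adjusted p under 0.05. Levels are given as UMIs of the gene per 10000 UMIs of the area, and are compared between areas only within a gene.

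Tnfsf13b, the BAFF gene, stood at 0.243 UMIs per 10000 in WT, 0.382 in Early, 0.462 in Advanced 1 and 0.322 in Advanced 2. These came from 44, 198, 156 and 103 UMIs. WT was the lowest and the 2 Advanced areas lay on both sides of Early. The 95% Poisson interval of WT, 0.177 to 0.327, overlapped that of Advanced 2, 0.263 to 0.391. Such intervals cover counting error only.

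Tnfsf13, the APRIL gene, stood at 0.531 in WT, 0.548 in Early, 0.515 in Advanced 1 and 0.444 in Advanced 2, from 96, 284, 174 and 142 UMIs. The 4 areas lay within a narrow range and their intervals overlapped.

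Tnfrsf13c, the BAFF receptor gene, stood at 1.19 in WT, 1.61 in Early, 1.33 in Advanced 1 and 1.05 in Advanced 2, from 215, 836, 448 and 337 UMIs. Early was above both Advanced areas, while WT lay between these 2. Tnfrsf13b, the TACI gene, stood at 0.752 in WT, 1.21 in Early, 1.05 in Advanced 1 and 0.907 in Advanced 2, from 136, 627, 354 and 290 UMIs. WT was the lowest area for TACI and Early the highest.

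The B cell markers of the areas followed the same order as TACI, so levels were also set against them. Per 100 UMIs of the B cell markers, Tnfrsf13b had 3.00 UMIs in WT, 2.63 in Early, 2.60 in Advanced 1 and 2.49 in Advanced 2. Tnfrsf13c had 4.74 in WT, 3.51 in Early, 3.29 in Advanced 1 and 2.89 in Advanced 2. On this scale WT was the highest area for both receptors. Fewer B cells and less receptor RNA per B cell cannot be told apart in these spots.

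Cd40 stood at 0.708 UMIs per 10000 in WT, 1.05 in Early, 1.03 in Advanced 1 and 0.954 in Advanced 2, from 128, 544, 349 and 305 UMIs. The 3 TNF-Tg areas were close to each other and above WT. Il21r, the interleukin-21 receptor gene, stood at 0.730 in WT, 0.950 in Early, 0.867 in Advanced 1 and 0.866 in Advanced 2. WT was again the lowest area, by a margin its interval of 0.611 to 0.865 did not separate from the Advanced areas. Per 100 B cell marker UMIs, Cd40 had 2.82 in WT, 2.28 in Early, 2.56 in Advanced 1 and 2.62 in Advanced 2. Il21r had 2.91, 2.07, 2.15 and 2.38 in the same order. On this scale WT was the highest area for both genes.

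Icosl, the ligand that B cells show to ICOS on T cells, stood at 1.84 in WT, 3.31 in Early, 3.07 in Advanced 1 and 2.97 in Advanced 2, from 332, 1712, 1037 and 949 UMIs. All 3 TNF-Tg areas were above WT with no overlap of intervals. Per 100 B cell marker UMIs the areas lay closer together, with 7.33 in WT, 7.19 in Early, 7.61 in Advanced 1 and 8.14 in Advanced 2. Icos itself went the other way, with 0.288 UMIs per 10000 in WT, 0.162 in Early, 0.151 in Advanced 1 and 0.216 in Advanced 2, from 52, 84, 51 and 69 UMIs. Icos is a T cell gene, and per 100 T cell marker UMIs it had 1.88 in WT, 1.57 in Early, 1.29 in Advanced 1 and 1.72 in Advanced 2.

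**Figure D1:**
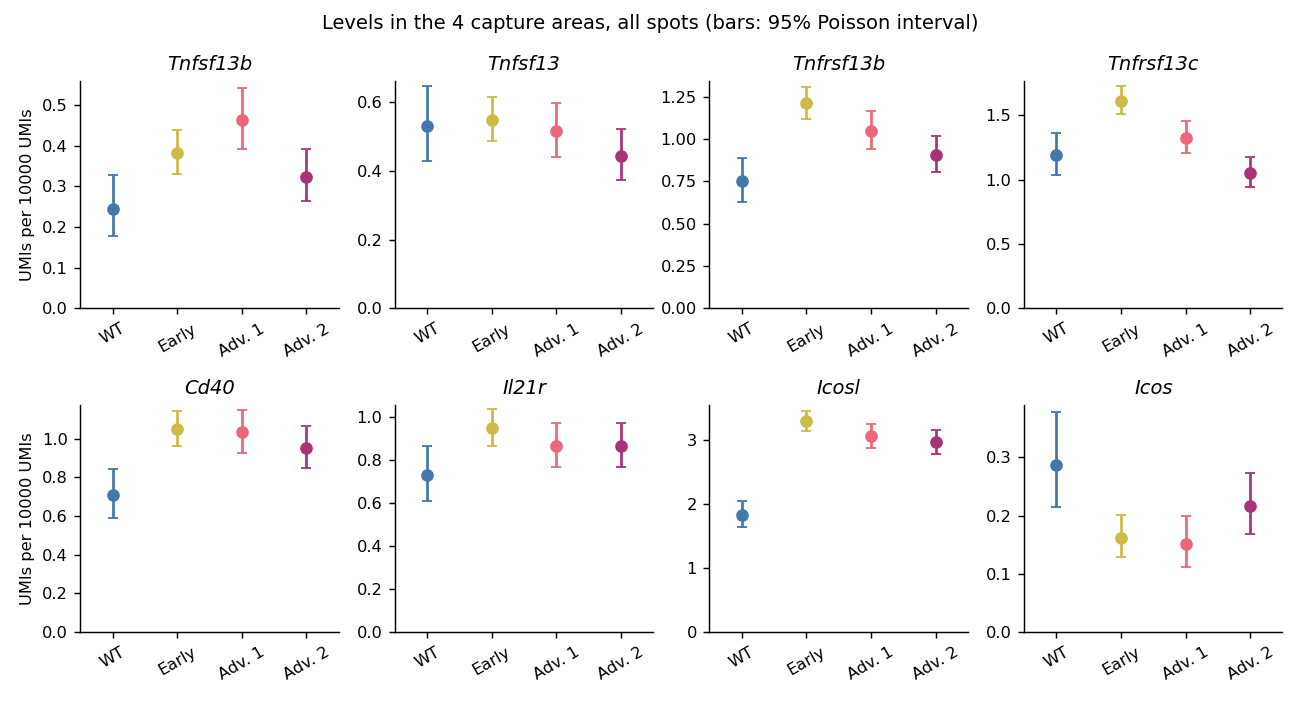
Level of each of the 8 measured genes (y axis, UMIs per 10000 UMIs over all spots) in the WT, Early, Advanced 1 and Advanced 2 areas (x axis), with bars for the 95% Poisson interval. Icosl is above WT in all 3 TNF-Tg areas (3.31, 3.07 and 2.97 against 1.84), while Tnfsf13 lies between 0.444 and 0.548 throughout.

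Cd40lg had 1 UMI in all, in Advanced 1, and 0 in WT, Early and Advanced 2. Il6 had 4 UMIs in Early, 2 in Advanced 2 and 0 in WT and Advanced 1. A count of 0 among the 1808678 UMIs of WT allows a level of up to 0.0166 per 10000, and among the 3378219 of Advanced 1 up to 0.00888. Both genes were thus not detectable at this depth in part of the areas, and neither passed the filter on low counts. Their partners were read in numbers, with 1326 UMIs of Cd40, 563 of Il6ra, 5375 of Il6st and 1194 of Il21r over the 4 areas. Il21, the ligand of Il21r, had 1 UMI in each Advanced area and 0 in WT and Early.

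The conditions were tested with edgeR's quasi-likelihood test on the summed counts of the areas, with 13102 genes tested and 1 residual degree of freedom. Of all genes, 0.496% were called higher and 0.664% lower in Advanced than in Early at an adjusted p under 0.05. No member was called in either direction. Of the 8 tested, 2 had an unadjusted p under 0.05, as had 7.69% of all genes. Tnfrsf13c was lower by a log2 difference of -0.52 (SE 0.19, edgeR adjusted p = 0.218) and Tnfrsf13b of -0.39 (SE 0.19, adjusted p = 0.629). The median log2 difference of the 8 was -0.21 and that of all genes 0.01.

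Against WT, 0.733% of all genes were called higher and 1.34% lower in Advanced, and again no member. Icosl came closest, at 1.52-fold the WT level (log2 difference 0.61, SE 0.19, edgeR adjusted p = 0.0574). With the immunoglobulin genes left out its adjusted p was 0.0459, and in the B cell rich spots alone, a comparison added after seeing the data, its log2 difference was 0.39 (adjusted p = 0.842). Icos had a log2 difference of -0.76 (SE 0.34, adjusted p = 0.334), Tnfsf13b of 0.58 (SE 0.30, adjusted p = 0.492) and Cd40 of 0.38 (SE 0.22, adjusted p = 0.581). Tnfrsf13b (0.27), Il21r (0.14), Tnfrsf13c (-0.11) and Tnfsf13 (-0.26) lay nearer 0 on the log2 scale. Both tests used the same 2 Advanced areas, with 1 area in the other group, so a p that misses the threshold does not show that levels were equal.

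The share of spots with at least 1 UMI was read after each spot of at least 1000 UMIs had been thinned to 1000 UMIs, since deeper spots show more genes. Icosl was found in 19.4% of these spots in WT, 30.8% in Early, 27.8% in Advanced 1 and 26.3% in Advanced 2. Without thinning the shares were 55.3%, 76.2%, 59.9% and 54.6%. The WT area had the lowest share only after thinning.

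Tnfrsf13c was found in 10.3% of the thinned spots in WT, 15.1% in Early, 13.3% in Advanced 1 and 8.94% in Advanced 2. Tnfrsf13b was found in 6.96%, 12.1%, 9.67% and 7.62% in the same order. Of the ligands, Tnfsf13 was found in 5.86%, 5.49%, 4.15% and 4.47% of thinned spots and Tnfsf13b in 3.30%, 3.00%, 5.01% and 3.97%. The remaining genes were found in 7.33% to 10.3% (Cd40), 8.44% to 9.82% (Il21r) and 1.04% to 2.93% (Icos) of thinned spots. The single Cd40lg UMI kept 1 spot, 0.173% of those in Advanced 1, and Il6 was found in none. The most UMIs of one of these genes in a single spot were 17, of Icosl in the Early area.

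The second question was where ligands and receptors lay in the nodes. Spots of at least 1000 UMIs were ranked in each area by the share of their UMIs on 12 B cell markers, none of which is a member, and the top 25% were called B cell rich. In the fit over all areas, receptors and Icosl were higher in B cell rich spots, and the 2 ligands BAFF and APRIL were lower. In the WT area alone BAFF was higher there. Of the 8 genes tested, 5 were higher and 2 lower, where 12.2% of the 10366 genes tested were called higher and 15.4% lower. The median log2 difference of the 8 was 0.63 and that of all genes -0.01.

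B cell marker UMIs stood at 59.1 to 89.8 per 10000 in the B cell rich spots and 17.9 to 36.2 in the others. Macrophage markers moved the other way, with 9.35 to 24.8 in the B cell rich and 38.5 to 73.4 in the other spots, as did plasma cell markers with 8.51 to 10.3 against 16.6 to 30.6. Red cell markers were at 0.688 to 13.0 against 4.28 to 18.5. B cell rich spots lay at the rim of the tissue in 54.5% to 79.5% of cases and the other spots in 26.0% to 71.6%. The median UMIs per spot were 2356 to 3698 in B cell rich and 2975 to 6394 in other spots. The part of these differences in the results was not tested.

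Tnfrsf13c, the BAFF receptor gene, stood in B cell rich spots at 2.98 UMIs per 10000 in WT, 2.83 in Early, 2.52 in Advanced 1 and 2.06 in Advanced 2. In the other spots it stood at 0.868, 1.31, 1.04 and 0.783. The 2 sets of values did not overlap. The fitted level was 2.37-fold higher in B cell rich spots (log2 difference 1.24, SE 0.11, edgeR adjusted p = 2.9e-11), and it was higher in 4 of 4 areas.

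Tnfrsf13b, the TACI gene, stood in B cell rich spots at 1.47 in WT, 1.84 in Early, 1.75 in Advanced 1 and 1.29 in Advanced 2. In the other spots it stood at 0.560, 0.984, 0.732 and 0.596, all below the lowest B cell rich value. The fitted level was 2.03-fold higher in B cell rich spots (log2 difference 1.02, SE 0.12, edgeR adjusted p = 2.65e-08). It was higher in 4 of 4 areas.

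Icosl stood in B cell rich spots at 3.52 in WT, 5.87 in Early, 4.87 in Advanced 1 and 4.67 in Advanced 2. In the other spots it stood at 1.30, 2.50, 2.05 and 1.99. The sets did not overlap, and the fitted level was 2.25-fold higher (log2 difference 1.17, SE 0.10, edgeR adjusted p = 9.64e-12). Between 32.9% and 42.3% of the Icosl UMIs of deep spots lay in B cell rich spots, which held 15.3% to 23.8% of all UMIs.

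Cd40 and Il21r were also higher. Cd40 stood in B cell rich spots at 1.08 in WT, 1.42 in Early, 1.47 in Advanced 1 and 1.32 in Advanced 2, and in the others at 0.644, 0.963, 0.931 and 0.833. It was 1.45-fold higher (log2 difference 0.54, SE 0.12, edgeR adjusted p = 0.000812). Cd40 is also a gene of dendritic cells and macrophages. Il21r stood at 1.16, 1.31, 1.19 and 1.41 in B cell rich spots and at 0.609, 0.868, 0.708 and 0.669 in the others, 1.64-fold higher (log2 difference 0.71, SE 0.13, edgeR adjusted p = 5.02e-05). With each spot thinned to 1000 UMIs Il21r was not called (log2 difference 0.42, adjusted p = 0.269). Both were higher in 4 of 4 areas.

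Tnfsf13b, the BAFF gene, stood in B cell rich spots at 0.348 in WT, 0.237 in Early, 0.213 in Advanced 1 and 0.174 in Advanced 2. In the other spots it stood at 0.210, 0.420, 0.518 and 0.373. It was lower in the B cell rich spots of the 3 TNF-Tg areas and higher in those of WT, where it rested on 9 UMIs in B cell rich spots. Over the 4 areas the fitted level was 0.532 of that in other spots (log2 difference -0.91, SE 0.24, edgeR adjusted p = 0.00338).

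Tnfsf13, the APRIL gene, stood in B cell rich spots at 0.425 in WT, 0.271 in Early, 0.354 in Advanced 1 and 0.334 in Advanced 2. In the other spots it stood at 0.553, 0.615, 0.554 and 0.478, above every B cell rich value. The fitted level was 0.556 of that in other spots (log2 difference -0.85, SE 0.19, edgeR adjusted p = 0.000664), and it was lower in 4 of 4 areas. With each spot thinned to 1000 UMIs Tnfsf13 was not called (adjusted p = 0.389) and Tnfsf13b had too few counts for the filter. With DESeq2 in place of edgeR the adjusted p was 0.107 for Tnfsf13b and 0.032 for Tnfsf13. Tnfsf13b was not called with the top 10% of spots (adjusted p = 0.126), nor Tnfsf13 with each spot in 1 class (adjusted p = 0.0864).

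Icos was the only tested member with no call in B cell rich spots. It stood there at 0.619 in WT, 0.135 in Early, 0.159 in Advanced 1 and 0.291 in Advanced 2, against 0.210, 0.168, 0.154 and 0.200 in the other spots. The WT value rested on 16 UMIs. The fitted log2 difference was 0.34 (SE 0.28, edgeR adjusted p = 0.411). Cd40lg and Il6 had 0 UMIs in the B cell rich spots of all areas.

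**Figure D2:**
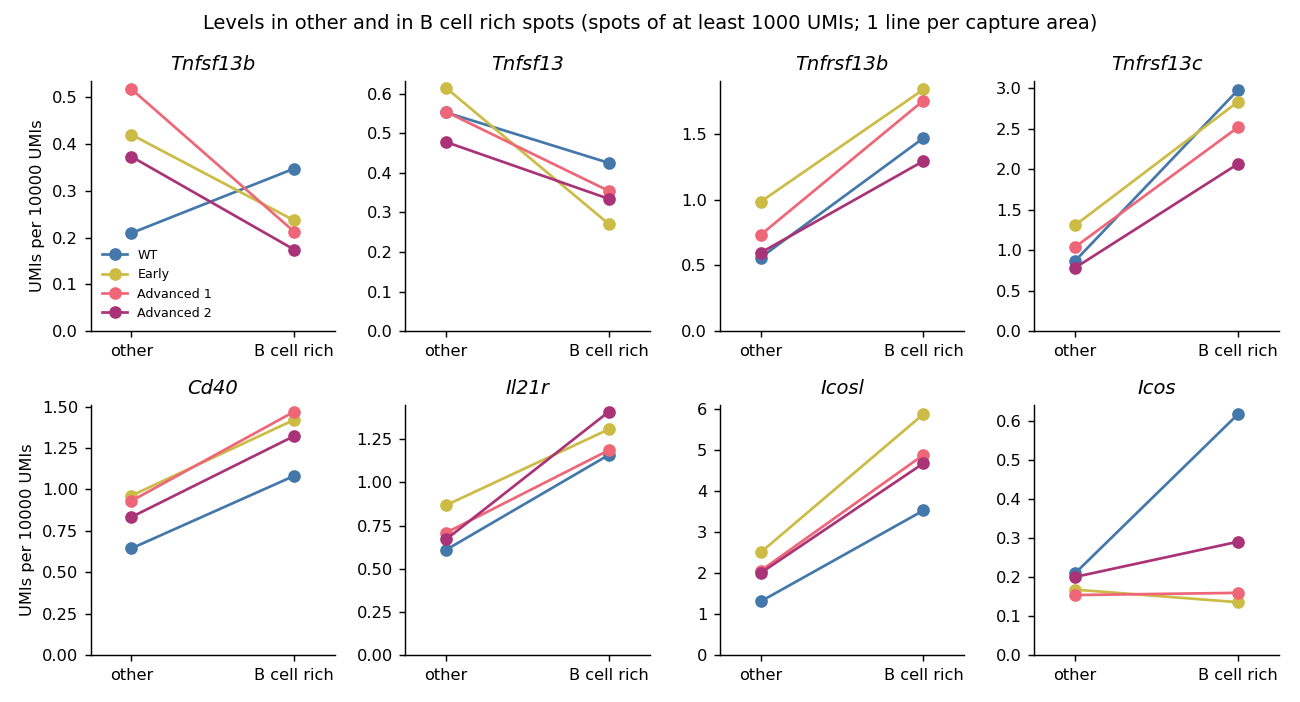
Level of each gene (y axis, UMIs per 10000 UMIs) in the other spots and in the B cell rich spots (x axis), with 1 line for each of the 4 capture areas, over spots of at least 1000 UMIs. The lines of Tnfrsf13b, Tnfrsf13c, Cd40, Il21r and Icosl go up in 4 of 4 areas, those of Tnfsf13 go down in 4 of 4, and that of Tnfsf13b goes up in WT only, from 0.210 to 0.348.

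The spots were next divided into 4 equal groups by B cell marker share. Tnfrsf13c went from 0.676, 0.724, 0.758 and 0.489 in the lowest group of WT, Early, Advanced 1 and Advanced 2 to 2.98, 2.83, 2.52 and 2.06 in the highest. In each area it was higher in every group than in the one below it. Tnfsf13b in Early went from 0.583 in the lowest group over 0.481 and 0.206 to 0.237 in the highest. In Advanced 1 it stood at 0.417, 0.580, 0.548 and 0.213, and in Advanced 2 at 0.391, 0.354, 0.374 and 0.174. The ligand was thus low in the highest group of the TNF-Tg areas, while WT stood at 0.143, 0.263, 0.227 and 0.348.

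**Figure D3:**
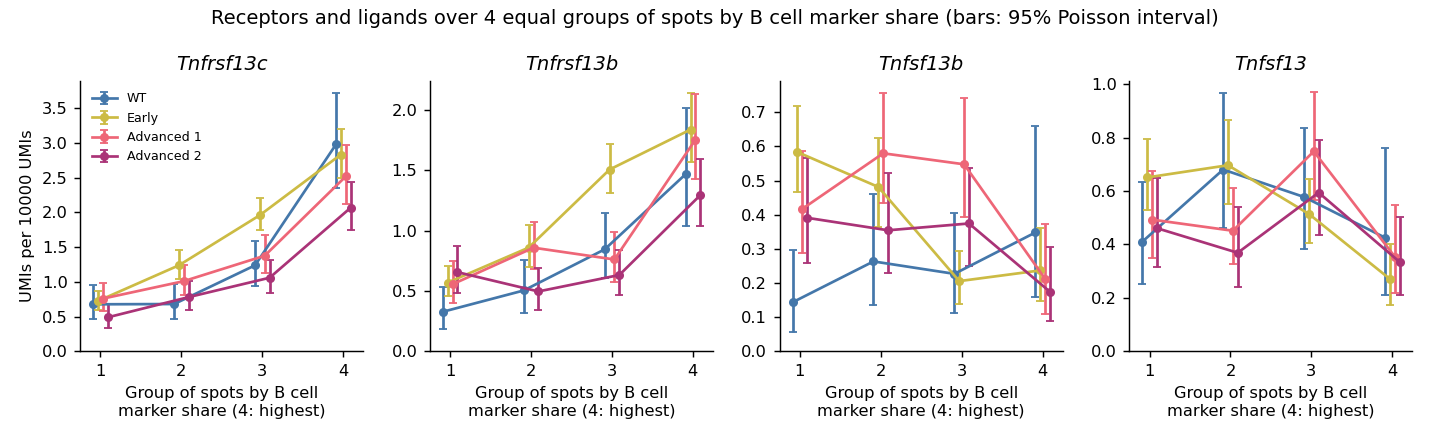
Levels of Tnfrsf13c, Tnfrsf13b, Tnfsf13b and Tnfsf13 (y axis, UMIs per 10000 UMIs, bars for the 95% Poisson interval) over 4 equal groups of spots by B cell marker share (x axis, 4 the highest), 1 line per capture area. Tnfrsf13c reaches 2.06 to 2.98 in the highest group, where Tnfsf13b is at 0.174 to 0.348.

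The location of the partner that B cells carry was then set against that of the other partner within each area. This was the log2 ratio of B cell rich to other spots of the receptor minus that of the ligand for BAFF and APRIL, and of the ligand Icosl minus that of its receptor for ICOS. Tnfrsf13c minus Tnfsf13b was 1.00 in WT, 1.91 in Early, 2.51 in Advanced 1 and 2.45 in Advanced 2, a mean of 1.97 ± 0.70 (SD, n = 4 areas). Tnfrsf13b minus Tnfsf13b was 0.62, 1.70, 2.49 and 2.17, a mean of 1.75 ± 0.82. Tnfrsf13b minus Tnfsf13 was 1.73, 2.06, 1.88 and 1.61, a mean of 1.82 ± 0.19. Each of these 3 differences was above 0 in 4 of 4 areas.

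Icosl minus Icos was -0.14 in WT, 1.49 in Early, 1.14 in Advanced 1 and 0.67 in Advanced 2, a mean of 0.79 ± 0.71. An exact two-sided sign-flip test over the areas, adjusted over the 4 pairs, gave p = 0.167 for each of the BAFF and APRIL pairs and 0.25 for Icosl and Icos. For the first 3 the unadjusted p was the smallest that 4 areas allow, which is above 0.05. The pairs share Tnfrsf13b and Tnfsf13b. No difference was given for Cd40 and Cd40lg, since Cd40lg was at 0 in 3 of 4 areas.

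Thinning left the BAFF and APRIL ligands in few spots, so few spots held a ligand and its receptor together. Shared spots were not counted without thinning. After thinning, a Tnfsf13b UMI was found in 3.57% of the spots with a Tnfrsf13c UMI and 3.27% of those without in WT, and in 2.20% and 3.14% in Early. In Advanced 1 the shares were 3.90% and 5.18%, and in Advanced 2 3.70% and 4.00%. The spots with both numbered 1, 2, 3 and 2. For Tnfsf13 and Tnfrsf13b they numbered 2, 3, 2 and 2, and no order could be read from such numbers. Shared spots of Tnfsf13b and Tnfrsf13b numbered 1, 3, 4 and 0, and those of Icos and Icosl 2, 5, 2 and 6. An Icos UMI was found in 3.77%, 2.70%, 1.24% and 3.77% of the spots with an Icosl UMI. In the spots without one it was found in 2.73%, 1.68%, 0.957% and 0.449%. Cd40lg and Cd40 shared no spot, but Cd40lg was in only 1 thinned spot, too few to show whether the pair lay together.

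**Figure D4:**
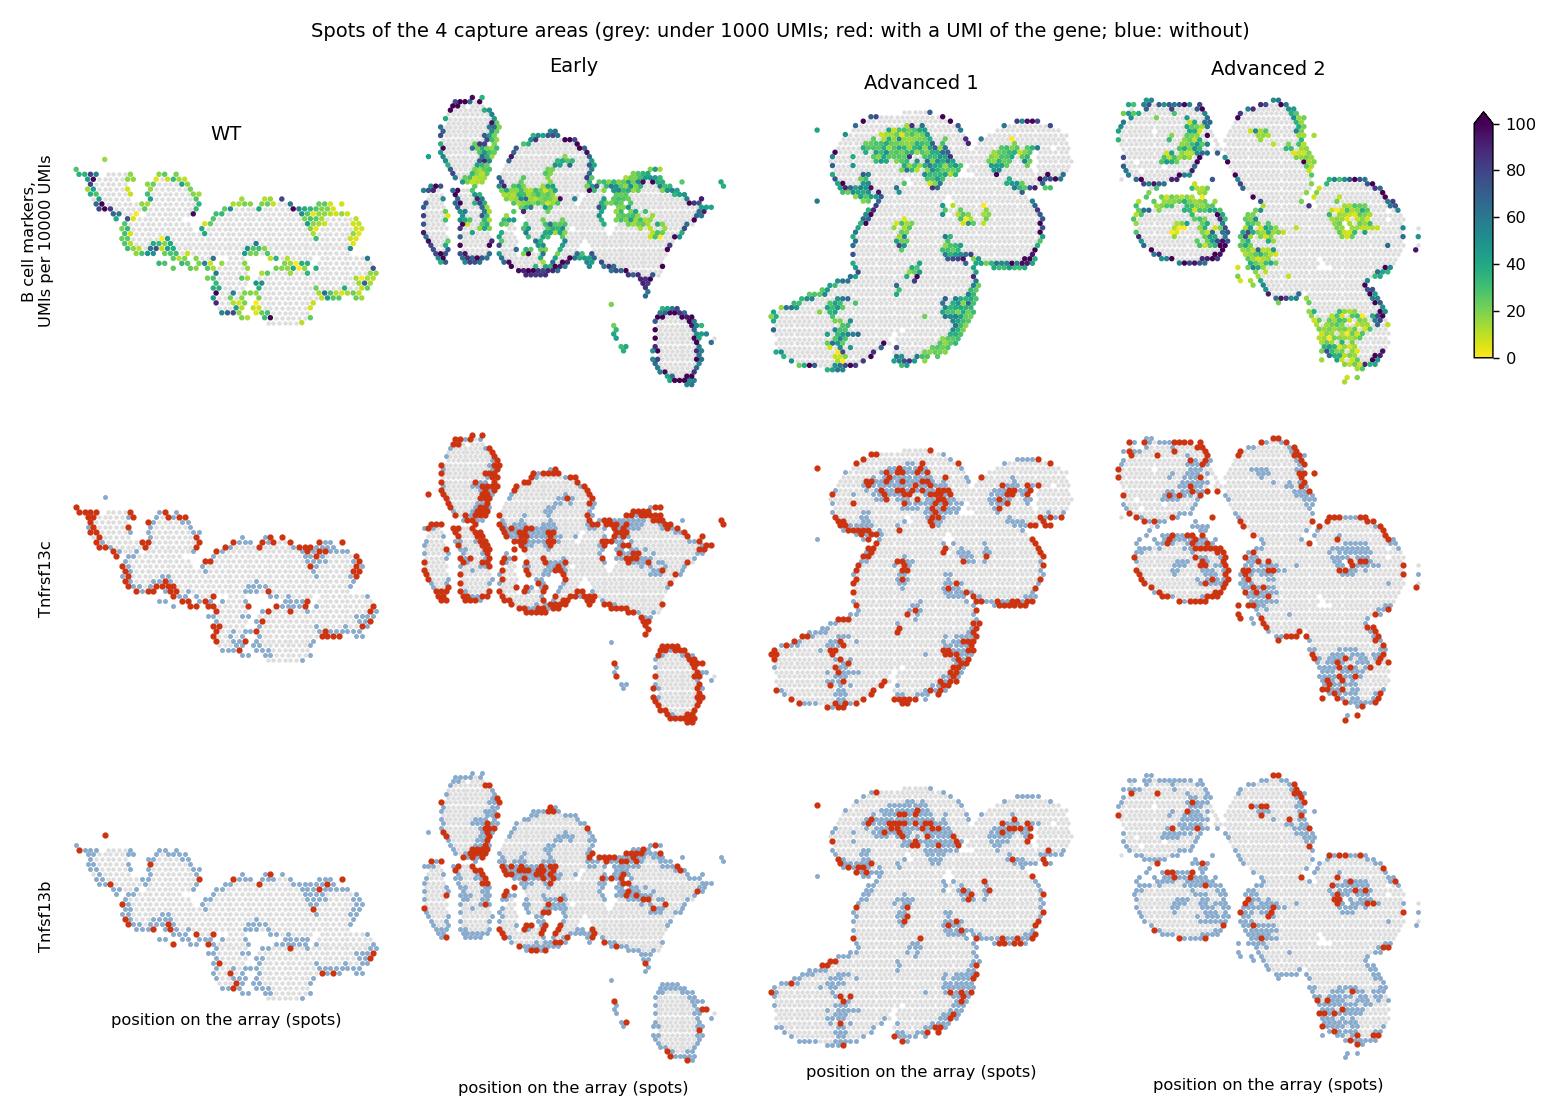
Maps of the WT, Early, Advanced 1 and Advanced 2 areas with each spot at its place on the array. The top row colours spots of at least 1000 UMIs by B cell marker UMIs per 10000 UMIs (values above 100 at the end of the scale), and the lower rows mark in red the spots with a UMI of Tnfrsf13c or Tnfsf13b. Spots under 1000 UMIs (grey) fill much of the area marked as under tissue. Tnfrsf13c was found in 32.8% to 55.9% of the deeper spots against 11.4% to 23.6% for Tnfsf13b.

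Macrophage rich spots, the top 25% by 12 macrophage markers, were compared with the other spots in the same way. Tnfrsf13c, Tnfrsf13b and Icosl were lower there in 4 of 4 areas, and no member was called higher, where 8.10% of the 10705 genes tested were called higher and 4.65% lower. Tnfrsf13c had a log2 difference of -1.03 (SE 0.13, edgeR adjusted p = 1.88e-05), Tnfrsf13b of -0.95 (SE 0.14, adjusted p = 9.88e-05) and Icosl of -0.82 (SE 0.12, adjusted p = 0.000125). With the B cell rich spots left out, a comparison added after seeing the data, these 3 were at -0.67, -0.71 and -0.50 with adjusted p = 0.00322, 0.00512 and 0.0222. With each spot thinned to 1000 UMIs Tnfrsf13b was not called (-0.72, adjusted p = 0.0863). B cell markers were lower in macrophage rich than in other spots too, at 14.0 against 30.4 per 10000 in WT and 25.4 against 55.6 in Early. The part of this in the lower receptor and Icosl levels was not tested.

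The fitted differences of the ligands had the other sign in macrophage rich spots and did not pass the test. Tnfsf13 was at 0.706 in WT, 0.679 in Early, 0.503 in Advanced 1 and 0.539 in Advanced 2, against 0.428, 0.493, 0.522 and 0.411 in the others (log2 difference 0.40, SE 0.16, edgeR adjusted p = 0.106). Tnfsf13b was at 0.173, 0.495, 0.591 and 0.351 against 0.267, 0.336, 0.415 and 0.317 (log2 difference 0.33, SE 0.18, adjusted p = 0.278). Tnfsf13 was called with spots of at least 500 UMIs (log2 difference 0.52, adjusted p = 0.0198), with the top 10% of spots (0.58, adjusted p = 0.043) and with each spot in 1 class (0.54, adjusted p = 0.00976). Each ligand was higher in macrophage rich spots in 3 of 4 areas, with Advanced 1 the exception for APRIL and WT for BAFF.

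In plasma cell rich spots, chosen by 8 markers, 4 members were lower and none higher, where 3.07% of 10283 genes were called higher and 2.19% lower. Tnfrsf13c had a log2 difference of -0.65 (SE 0.13, edgeR adjusted p = 0.000831), Icosl of -0.56 (SE 0.11, adjusted p = 0.00055), Cd40 of -0.56 (SE 0.14, adjusted p = 0.00962) and Il21r of -0.51 (SE 0.13, adjusted p = 0.0173). Each was lower in 4 of 4 areas. B cell markers were lower in plasma cell rich than in other spots too, at 14.1 against 28.4 per 10000 in WT and 26.1 against 51.0 in Early. Tnfsf13 had a log2 difference of -0.52 (SE 0.17, adjusted p = 0.0755). With the B cell rich spots left out none of the 4 was called (adjusted p = 0.12 to 0.457), while Tnfsf13 was, at -0.74 (adjusted p = 0.0114). Tnfsf13 was also called with no filter on low counts (adjusted p = 0.0322) and without the Early area (0.0359). Without the Early area Tnfrsf13c (adjusted p = 0.0938), Cd40 (0.0972) and Il21r (0.0808) were not called, nor was Il21r without Advanced 1 (0.106) or Advanced 2 (0.0681). BCMA (Tnfrsf17), the receptor of plasma cells, had only 59 UMIs over the 4 areas.

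In stroma and fat rich spots, chosen by 11 markers, 4 members were again lower and none higher, where 6.55% of 10873 genes were called higher and 4.51% lower. Tnfrsf13c had a log2 difference of -0.65 (SE 0.12, edgeR adjusted p = 0.000256), Icosl of -0.54 (SE 0.11, adjusted p = 0.0014), Tnfrsf13b of -0.53 (SE 0.13, adjusted p = 0.00558) and Il21r of -0.52 (SE 0.13, adjusted p = 0.00621). With the B cell rich spots left out none was called (adjusted p = 0.131 to 0.347), and without the Early area Tnfrsf13b (adjusted p = 0.1252) and Il21r (0.0621) were not. Icosl was lower in 3 of 4 areas and the other 3 genes in 4 of 4. B cell markers were lower in stroma and fat rich than in other spots too, at 20.6 against 25.3 per 10000 in WT and 29.7 against 53.2 in Early.

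In T cell rich spots, chosen by 14 markers, only Tnfrsf13c was called, lower, where 0.566% of 10244 genes were called higher and 0.322% lower. Its log2 difference was -0.56 (SE 0.13, edgeR adjusted p = 0.0338), and with the B cell rich spots left out -0.36 (adjusted p = 0.296). It was not called without Early (adjusted p = 0.461), Advanced 1 (0.153) or Advanced 2 (0.238). Icos, the T cell member, had a level of 0.262 ± 0.16 UMIs per 10000 (SD, n = 4 areas) in T cell rich and 0.192 ± 0.047 in other spots, higher in 3 of 4 areas (log2 difference 0.31, SE 0.28, adjusted p = 0.753).

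**Figure D5:**
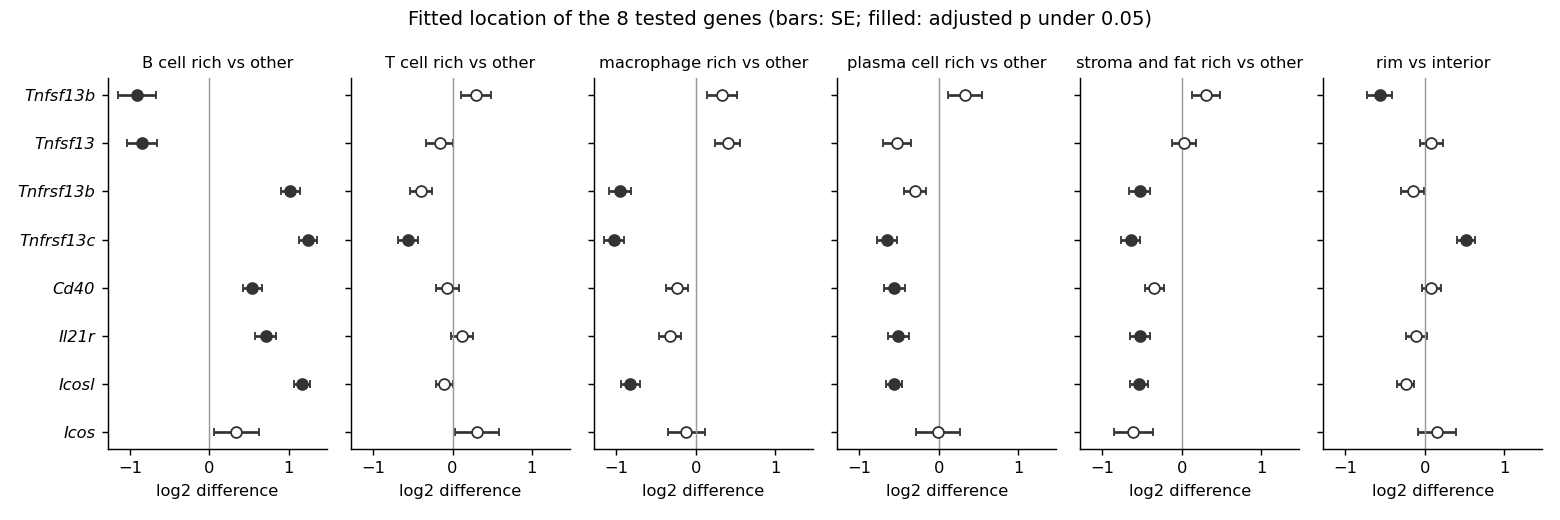
Fitted log2 difference (x axis) of the 8 tested genes (rows) between B cell, T cell, macrophage, plasma cell or stroma and fat rich spots and the other spots, and between rim and interior spots. Bars are the SE, and filled points have an edgeR adjusted p under 0.05. Tnfrsf13c is at 1.24 in B cell rich and -1.03 in macrophage rich spots, and Tnfsf13b at -0.91 and 0.33.

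Rim spots were compared with interior spots of any depth, where 4.29% of 10998 genes were called higher and 3.75% lower. Tnfsf13b was lower at the rim in 4 of 4 areas, at 0.298 ± 0.074 UMIs per 10000 against 0.468 ± 0.10 (log2 difference -0.57, SE 0.16, edgeR adjusted p = 0.029). Tnfrsf13c was higher at the rim in 4 of 4 areas, at 1.42 ± 0.24 against 1.08 ± 0.25 (log2 difference 0.52, SE 0.12, adjusted p = 0.0071). Tnfsf13b was not called without Early (adjusted p = 0.212), Advanced 1 (0.0554) or Advanced 2 (0.135), nor Tnfrsf13c without Early (0.0545) or Advanced 2 (0.117). Rim and interior are places in the area marked as under tissue, which was not checked against the histology image. Depth moved with this contrast. The median UMIs per spot at the rim were 2113 to 5541 and inside 140.5 to 250.5, and with the spots of at least 1000 UMIs alone the adjusted p was 0.0398 for Tnfsf13b and 0.0147 for Tnfrsf13c.

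The genes most like each member over the spots of at least 1000 UMIs were found for the 7 members seen in at least 10% of these spots in every area. Likeness was Pearson's r over spots on the log2 scale, averaged over the 4 areas, among 6503 genes, and is a description of sparse counts of spots that share a library. Tnfrsf13c was most like Cd74 (mean r 0.24), Ighd (0.22), H2-Ob (0.22), Blk (0.21) and Cd79a (0.20). Tnfrsf13b was most like Cd74 (0.19), Ighd (0.17) and Cd79b (0.17), and Icosl like Cd74 (0.28) and Cd79a (0.23). Blk, Cd79a and Cd79b are among the B cell markers that chose the spots.

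The genes most like the ligands were others. Tnfsf13 was most like Ccl8 (mean r 0.15), Timd4 (0.15) and Lyve1 (0.14), and Tnfsf13b like U2af1 (0.11), C3 (0.11) and Rpp25l (0.11). Timd4 is a gene of tissue macrophages and Lyve1 of lymphatic endothelium. Among the members, Tnfrsf13c and Icosl had the highest mean r with each other, 0.13, and Tnfsf13b and Tnfrsf13c had 0.0033. Cd40 was most like Ighd (0.15) and Il21r like Lat2 (0.15). These r values were low throughout.

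The 33 other genes of the pathways were counted in the same tests. In B cell rich spots, 7 of the 30 tested were higher and 5 lower, with a median log2 difference of 0.08 against -0.01 for all genes. Of all genes tested, 12.2% were higher there and 15.4% lower. Of the 11 TRAF and alternative NF-kB genes, which act downstream of BAFF and CD40, 5 were higher and none lower. The largest differences were those of Traf5 (log2 difference 0.86, SE 0.16, edgeR adjusted p = 3.36e-05), Traf3 (0.64, SE 0.15, adjusted p = 0.00104) and Traf1 (0.51, SE 0.11, adjusted p = 0.000671). Of the 6 survival genes, Bcl2a1b (0.80, adjusted p = 0.00054) and Bcl2 (0.72, adjusted p = 0.000303) were higher and Bcl2l1 (-1.13, adjusted p = 6.99e-05) lower.

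Of the other receptors and ligands, 3 of 8 tested were lower in B cell rich spots. These were Il6st (-1.36, edgeR adjusted p = 4.2e-12), the shared signal chain of interleukin-6, its partner Il6ra (-0.93, adjusted p = 0.000582) and Cd28 (-1.15, adjusted p = 0.0376), a costimulator on T cells. Of the 5 JAK-STAT genes, Socs3, a feedback inhibitor of interleukin-6 signals, was lower (-0.84, adjusted p = 3.27e-05). In macrophage rich spots 5 of 30 were higher and 3 lower, against 8.10% and 4.65% of all genes. There Socs3 (0.79, adjusted p = 0.00448), Bcl2l1 (0.63, adjusted p = 0.00868), Cd86 (0.56, adjusted p = 0.033), Il6st (0.55, adjusted p = 0.0346) and Il6ra (0.52, adjusted p = 0.0391) were higher. Bcl2a1b (-0.96, adjusted p = 0.00394), Traf3 (-0.64, adjusted p = 0.00637) and Bcl2 (-0.60, adjusted p = 0.0336) were lower.

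Between conditions 1 of the 31 pathway genes tested was called. Of all genes, 0.496% were called higher and 0.664% lower in Advanced than in Early, which was 1 area. Socs3 was lower in Advanced than in Early (log2 difference -0.85, SE 0.20, edgeR adjusted p = 0.00259), and none was called between Advanced and WT. In plasma cell rich spots Il6st was higher (0.43, adjusted p = 0.0137) and Bcl2a1b (-1.36, adjusted p = 0.000234) and Il4ra (-0.44, adjusted p = 0.0222) lower. In stroma and fat rich spots Il6st was higher (0.62, adjusted p = 4e-05) and Bcl2a1b (-1.001, adjusted p = 0.000372) and Traf5 (-0.73, adjusted p = 0.00272) lower. At the rim Bcl2a1b was higher (0.91, adjusted p = 0.00182), and in T cell rich spots none of the 29 tested was called. Of all genes, 3.07% were called higher and 2.19% lower in plasma cell rich spots, and 6.55% and 4.51% in stroma and fat rich spots. The shares were 4.29% and 3.75% at the rim and 0.566% and 0.322% in T cell rich spots.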

How the data were processed

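Spatial transcriptomics of 4 capture areas (WT, Early, Advanced 1 and Advanced 2; 14 mice, 28 PLNs) was analysed from the deposited spot by gene matrices. The authors made these UMI counts with Space Ranger 1.1.0 on mm10 (GRCm38), per the labels, and deposited them unnormalized for spots under tissue, without pooling areas. Sections of 10 µm had been permeabilized for 12 minutes.

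Counts were summed over all spots of an area or over spots of 1 class and tested with edgeR 4.0.16 (R 4.3.3): TMM scaling, filterByExpr, quasi-likelihood test and Benjamini-Hochberg adjustment over all genes tested, with a threshold of 0.05. The condition fit held the 4 areas in 3 groups. Location fits held 2 sums per area with the area as a block, on spots of at least 1000 UMIs, where the top 25% of spots by a marker list formed a class. Area totals were 1808678 to 5180493 UMIs, and counting intervals are 95% Poisson intervals. A count of 0 was read with a floor of 3 counts. Receptor minus ligand (Icosl minus Icos for that pair) used a pseudocount of 0.5 UMIs and an exact sign-flip test.

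All 10 members are named. Pathway genes past the threshold were counted, with at most the 3 of largest change per direction and list named, and the 5 genes most alike were found per member. Leaving out the B cell rich spots, or using them alone, was added after seeing the data, and the values printed under alternatives were picked after they were seen. Members, lists and marker sets were chosen with earlier results of these data known. Alternatives were other size factors, DESeq2 1.42.0, no filter, immunoglobulin genes left out, thinning to 1000 UMIs, other spot minima (500 and 2000), the top 10%, each spot in 1 class, no area block and leaving out each area. Scripts were tested on simulated data. Motifs were searched in RefSeq promoter windows, which were listed for 7 members.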

Additional observations from a re-analysis of the deposited data

Results flagged for a closer look

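The interaction of genotype and location was fitted for the tested members in every location contrast (edgeR's quasi-likelihood test). This rule left out Il21r (0.90) and Tnfrsf13b (0.82) at the rim, Icos in B cell rich (-1.37) and Cd40 in plasma cell rich spots (0.85), as TNF-Tg minus WT. The 4 contrasts below were picked because the WT area lay on one side and all 3 TNF-Tg areas on the other. Their unadjusted p-values are thus those of contrasts picked from the same values. None passed at an adjusted p under 0.05. WT was 1 area, and this comparison has no replicate on its side.

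For Tnfsf13b in B cell rich spots, TNF-Tg minus WT was -1.70 on the log2 scale (SE 0.68, unadjusted p = 0.0144, edgeR adjusted p = 0.82). The BAFF gene stood at 0.348 UMIs per 10000 in the B cell rich and 0.210 in the other spots of WT, from 9 UMIs in the first. In macrophage rich spots the same difference was 0.95 (SE 0.53, unadjusted p = 0.089, edgeR adjusted p = 0.596), with Tnfsf13b at 0.173 in the macrophage rich and 0.267 in the other spots of WT.

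For Icosl in stroma and fat rich spots it was -0.75 (SE 0.25, unadjusted p = 0.00557, edgeR adjusted p = 0.444), with 1.70 UMIs per 10000 in these and 1.62 in the other spots of WT. For Icosl in T cell rich spots it was -0.39 (SE 0.26, unadjusted p = 0.141, edgeR adjusted p = 0.659), with 1.96 against 1.58 in WT.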

How the results depend on the processing

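Members called between B cell rich and other spots (7) and macrophage rich and other spots (3) kept their direction under every alternative that could be fitted, and the number called was the same in each leave-out of an area (7 and 3). With each spot thinned to 1000 UMIs the numbers were 4 and 2, with Il21r and Tnfsf13 not called and Tnfsf13b untested in the first and Tnfrsf13b not called in the second. Between conditions 0 members were called, and 1 (Icosl, Advanced against WT) with the immunoglobulin genes left out.

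The single T cell rich call was lost (0 called) with DESeq2, without the area block, with thinning, with spots of at least 500 or 2000 UMIs, with the top 10%, with each spot in 1 class and, added after seeing the data, with the B cell rich spots left out, and leaving out each area gave 0 to 1. The plasma cell rich count of 4 was 2 with DESeq2 or each spot in 1 class, 1 with thinning, the top 10% or the B cell rich spots left out, 0 without the block and 2 to 4 leaving out each area. The stroma and fat rich count of 4 was 2 with DESeq2 or the top 10%, 1 with thinning or each spot in 1 class, 0 without the block or the B cell rich spots and 2 to 4 leaving out each area. The rim count of 2 was 1 with DESeq2, 0 without the block or with thinning and 0 to 2 leaving out each area. Thinning and leaving out an area use fewer counts or samples; for the rest the cause was not tested.

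Tnfrsf13b minus Tnfsf13 was 2.21 with the top 10% and 1.36 with thinning, and leaving out each area gave 1.74 to 1.89 for it, 1.79 to 2.29 for Tnfrsf13c minus Tnfsf13b, 1.50 to 2.12 for Tnfrsf13b minus Tnfsf13b and 0.557 to 1.102 for Icosl minus Icos. Log2 differences of uncalled members between conditions changed sign as follows. Advanced against Early was 0.46 for Tnfsf13b, 0.0801 for Cd40 and -0.90 for Icos with thinning, -0.45 for Icos in interior spots and 0.29 for Tnfsf13 in B cell rich spots. Advanced against WT was -0.16 for Il21r with thinning, -0.25 for Tnfrsf13b and -0.48 for Il21r in interior spots, and -0.90 for Tnfsf13b and -0.00888 for Tnfrsf13b in B cell rich spots. Without Advanced 2, a value with no test, Tnfsf13b (0.18) and Icos (-0.19) changed sign against Early and Tnfrsf13c (0.03) against WT.

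No paired analysis between conditions was possible, because the groups were different mice and WT and Early had no replicate area. Leaving out an Advanced area left the condition comparisons with no test. Depth limits Cd40lg, Il6 and Icos most, with 1, 6 and 256 UMIs in all.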
